A study of Arabidopsis thaliana with 5 samples.

Results

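Class III peroxidases are the secreted haem peroxidases of plants, encoded in Arabidopsis thaliana by a family of 73 genes. The members were taken by locus, through the probe sets that name 1 gene, a rule that uses no measured value, but the family and its role groups were picked with earlier results of these data known. Of the 73 loci, 46 had a probe set of their own, out of 3602 genes named in this way, and the other 27 loci were not analysed here. The 46 genes were measured by 51 probe sets, and a gene with more than 1 was represented by the set with the highest mean signal.

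These enzymes work in the cell wall and vacuole, where they use hydrogen peroxide to oxidise phenolic compounds. They couple monolignols into lignin, cross-link wall proteins such as extensins, and can also produce reactive oxygen species that loosen the wall. Several members are known mainly from roots and root hairs, others from lignifying tissue, and others respond to pathogens or abiotic stress.

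Expression was measured in whole plants at growth stage 1.04, grown at 18 degrees and 65% humidity with 16 h of light and 8 h of dark, on 5 one-colour Affymetrix Arabidopsis Genome arrays. The study concerns calcium/calmodulin-binding transcription factors, and its groups were the accession Col-0 with no line named, CAMTA.1.2, a T-DNA insertion line in Col-0, CAMTA.6.2, a T-DNA line in Col-0 that the labels describe as segregating (both with the vector pROK2), the accession WS with no line named, and CAMTA.1, a line in WS whose modification the labels do not describe. Each group had 1 array, so no difference between 2 arrays has a replicate or a p-value, and the sources used here do not give the number of plants per array. The source names run against these characteristics (the Col-0 array carries KO1, CAMTA.6.2 carries WSC), so every direction below rests on the characteristics.

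All values below are scaled intensities. A floor of 18.1 was set, values under it count as the floor, and where only 1 of 2 arrays lay above it the fold is a bound, written as at least that size. Signals of different probe sets depend on their probes, so levels are compared between arrays and not between genes.

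Some facts of the arrays bear on what follows. ECS1 (AT1G31580), a gene known to differ between accessions, separated them here, with 3545 to 6832 for Col-0, CAMTA.1.2 and CAMTA.6.2 against 97.3 for WS and 39.1 for CAMTA.1. CAMTA4 was under the floor on all 5 arrays and CAMTA5 lay between 15.5 and 21.7, so no CAMTA gene serves as a check of the line labels. The scanner background was 92.6 on the WS array against 60.7 to 75.6 on the others. Of 9 spiked bacterial and phage control probe sets, 3 were 2-fold or more lower on the WS array than on the Col-0 array, 1 was higher by that much on CAMTA.1 than on WS, and 0 were 2-fold apart for CAMTA.1.2 or CAMTA.6.2 against Col-0. Ubiquitin control probe sets gave a 3' over 5' ratio of 3.57 for CAMTA.6.2 and 3.32 for CAMTA.1, against 2.28 to 2.68 on the others. GAPDH control probe sets did not set these arrays apart. Their ratio was 1.64 for Col-0, 1.94 for CAMTA.1.2, 1.78 for CAMTA.6.2, 1.38 for WS and 1.29 for CAMTA.1. In the whole plants, the 5 measured green shoot markers of 25 listed were above the floor on every array, as was BGLU21, a beta-glucosidase gene of roots and the only 1 of 22 listed root markers measured.

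The peroxidase genes varied widely between arrays. Of the 46, 37 were above the floor on at least 1 array, 26 on all 5 and 9 on none. The highest and lowest arrays were 2-fold apart or more for 20 of the 46, against 17.0% of all 3602 genes. Above the floor on at least 1 array, it was 20 of 37, against 26.5% of 2310 genes. The median of this range was 1.90-fold for the 46 genes and 1.32-fold for all genes. Both medians include genes that never rose above the floor, and 80.4% of the 46 but 64.1% of all genes did rise above it.

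**Figure D1:**
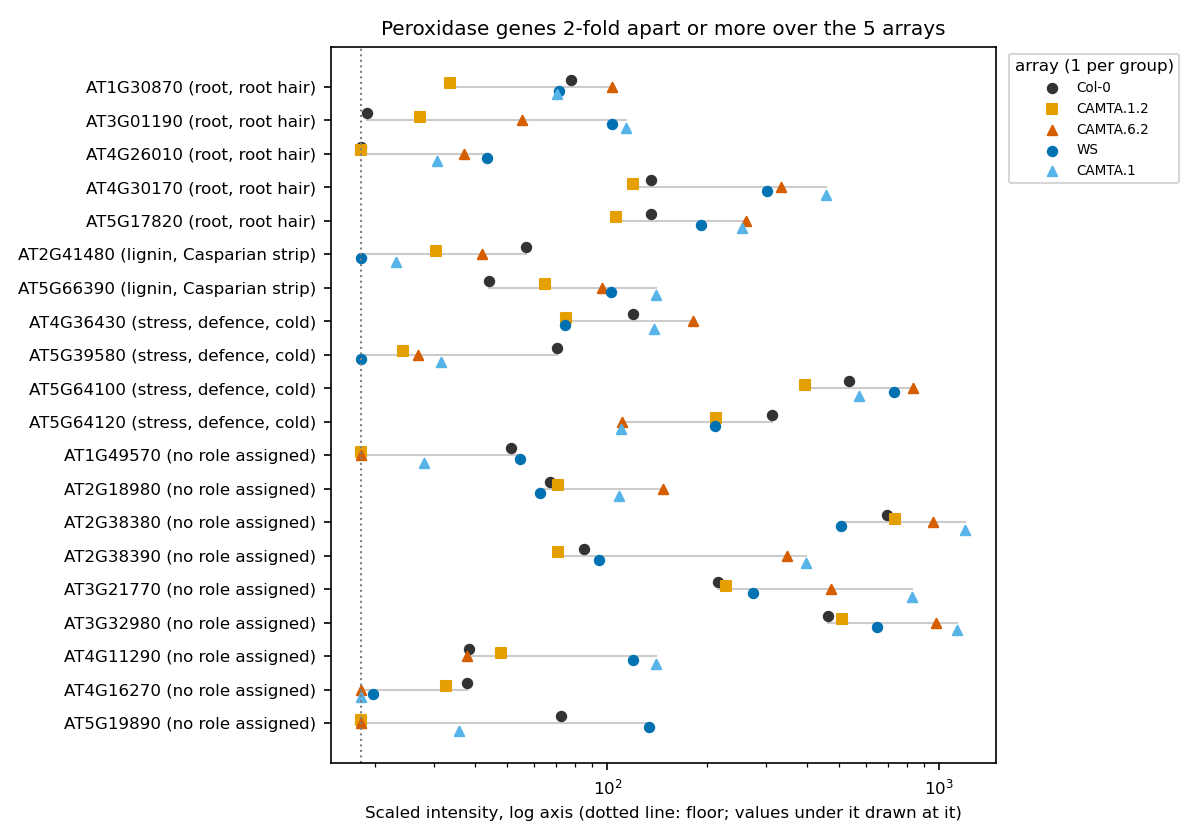
Scaled intensity (log axis) of the 20 peroxidase genes 2-fold apart or more over the 5 arrays, 1 row per gene with its role group, 1 point per array and no error bars because each group has 1 array. CAMTA.1.2 is the highest array for 0 of the 20 genes and CAMTA.1 for 8.

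Among these 20 genes the CAMTA.1 array was highest for 8, the CAMTA.6.2 array for 5, Col-0 for 4, WS for 3 and CAMTA.1.2 for 0. Over all 611 genes with such a range, the shares were 22.1% for CAMTA.1, 28.2% for CAMTA.6.2, 17.2% for Col-0, 14.9% for WS and 17.7% for CAMTA.1.2. With values under the floor counted as equal, the CAMTA.1.2 array alone was lowest for 5 of the 20, against 18.3% of the 611 genes. No peroxidase gene was 2-fold higher on the CAMTA.1.2 array than on any other array, where 0.361% of all genes were so against Col-0, 2.92% against CAMTA.6.2, 2.08% against WS and 3.69% against CAMTA.1.

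On the CAMTA.1.2 array, 4 of the 46 peroxidase genes were 2-fold or more lower than on the Col-0 array and 0 higher, against 1.17% and 0.361% of all genes. In either direction the background was 1.53% of all genes and 2.63% of the 2095 genes above the floor on 1 or both arrays. The 4 were AT5G19890, AT5G39580, AT1G49570 and the root gene AT1G30870. The median log2 difference was 0 over the 46 and over all genes, and -0.18 over the 33 peroxidase genes above the floor on 1 or both arrays, against 0.03 over the 2095 such genes. For CAMTA.1.2, AT5G19890 and AT1G49570 were under the floor, and AT5G39580 and AT1G30870 at 24.3 and 33.6. With the floor at the 60th percentile 0 of the 46 genes were 2-fold apart.

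On the CAMTA.6.2 array, 8 of the 46 genes were 2-fold or more higher than on the Col-0 array and 5 lower, against 2.97% and 3.11% of all genes. In either direction the background was 6.08% of all genes and 10.2% of the 2155 genes above the floor on 1 or both arrays. The higher genes were AT2G38390, AT3G01190, AT4G30170, PRX72 (AT5G66390), AT3G21770, AT2G18980, AT3G32980 and AT4G26010. The lower genes were AT5G19890, AT1G49570, PRX71 (AT5G64120), AT5G39580 and AT4G16270. The median log2 difference was 0.29 over the 34 peroxidase genes above the floor on 1 or both arrays, against 0.07 over the 2155 such genes. With the floor at the 60th percentile the count of 13 became 7, with 6 higher and 1 lower. AT4G26010 fell just short of 2-fold with the values as deposited, at a log2 difference of 0.99, and AT3G32980 with quantile normalization, at 0.996.

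On the CAMTA.1 array, 3 of the 46 genes were 2-fold or more higher than on the WS array and 1 lower, against 1.94% and 2.64% of all genes. AT2G38390, AT3G21770 and AT2G38380 were higher and AT5G19890 lower. In either direction, 4 of the 46 (8.70%) stood beside 4.58% of all genes. Above the floor on 1 or both arrays, 4 of 37 peroxidase genes stood beside 7.65% of the 2157 such genes. With a count of 4, these shares do not set the family apart from the background. With the values as deposited 6 genes passed, the same 3 higher and 3 lower, AT1G49570 and PRX71 being added. With the floor at the 20th percentile 8 genes passed, 6 higher and 2 lower, while 9.97% of all genes did.

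On the WS array, 5 of the 46 genes were 2-fold or more higher than on the Col-0 array and 2 lower, against 1.42% and 2.11% of all genes. In either direction, 7 of 46 stood beside 3.53% of all genes. Above the floor on 1 or both arrays, 7 of 36 peroxidase genes stood beside 5.92% of the 2144 such genes. AT3G01190, AT4G11290, AT4G26010, PRX72 and AT4G30170 were higher, and PRX25 (AT2G41480) and AT5G39580 lower. The spiked controls had a median log2 difference of -0.57 in the same comparison, and their part in these 7 differences was not tested. With the floor at the 60th percentile 4 genes passed, all 4 higher.

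**Figure D2:**
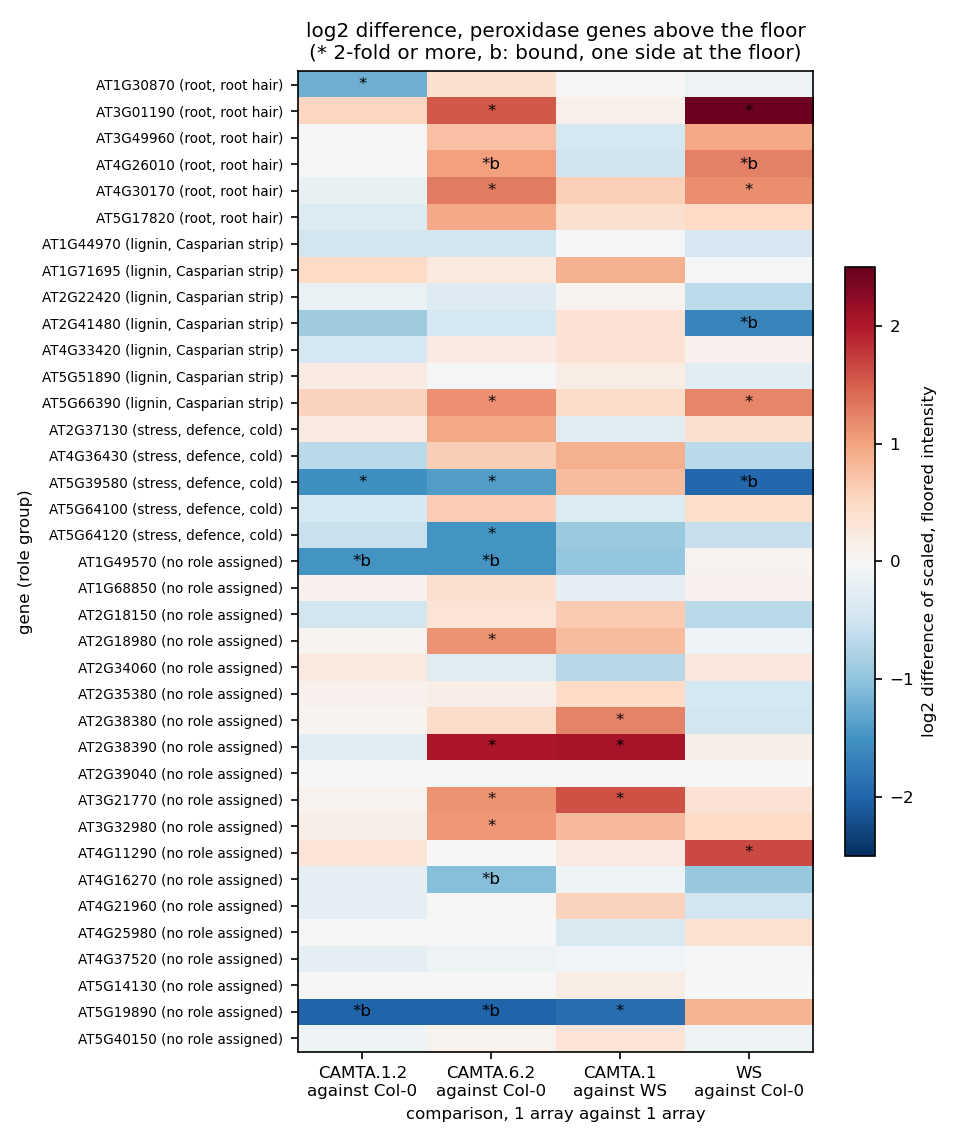
log2 differences of scaled, floored intensity in 4 comparisons of 1 array with 1 array (columns) for the 37 peroxidase genes above the floor on at least 1 array (rows, by role group). An asterisk marks 2-fold or more and b a bound, and the column CAMTA.6.2 against Col-0 holds 13 asterisks, the most of the 4.

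All 10 pairs of arrays gave between 2 and 13 peroxidase genes 2-fold apart. Besides the 4 comparisons above, CAMTA.1 against Col-0 had 12, with 7.00% of all genes, CAMTA.6.2 against CAMTA.1.2 had 10, with 6.47%, and CAMTA.1 against CAMTA.1.2 had 9, with 6.86%. WS against CAMTA.1.2 had 7, with 3.66% of all genes, and WS against CAMTA.6.2 had 7, with 7.61%. CAMTA.1 against CAMTA.6.2 had the fewest, 2, with 3.89% of all genes. Among the genes above the floor on 1 or both arrays, the shares in the same order of pairs were 11.6%, 10.9%, 11.4%, 6.19%, 12.6% and 6.49%. The peroxidase genes above the floor numbered 35, 32, 34, 36, 36 and 34 in that order. For WS against CAMTA.6.2, 7 of 36 stood beside 12.6%, and 15.2% of the 46 beside 7.61% of all genes. For CAMTA.1 against CAMTA.6.2, 2 of 34 stood beside 6.49%, and 4.35% of the 46 beside 3.89%, near the background. No share was tested against its background. These pairs reuse the same 5 arrays and are not independent.

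**Figure D3:**
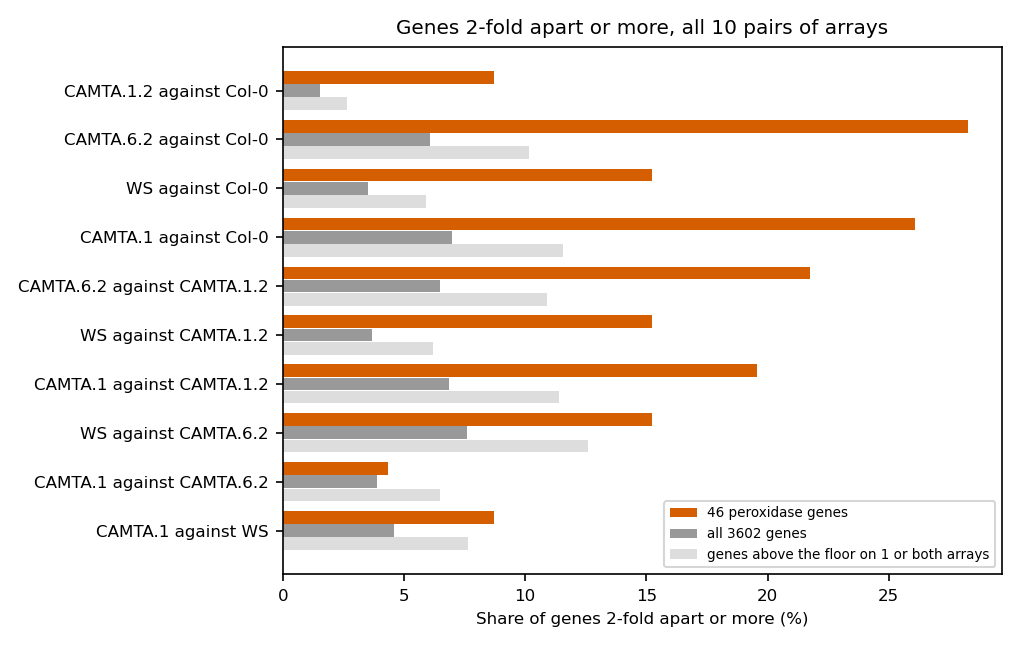
Share of genes 2-fold apart or more (percent) in all 10 pairs of arrays, for the 46 peroxidase genes, all 3602 genes and the genes above the floor on 1 or both arrays of the pair. The share of the peroxidase genes is lowest for CAMTA.1 against CAMTA.6.2, at 4.35%, and highest for CAMTA.6.2 against Col-0, at 28.3%.

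The root and root hair group had 11 listed loci, of which 6 were measured and all 6 were above the floor on some array. With values under the floor counted as equal, CAMTA.1.2 alone was lowest for 4 of the 6, against 17.4% of the genes above the floor on at least 1 array, and tied with Col-0 at the floor for AT4G26010. Against Col-0 the 4 were lower by 2.32-fold (AT1G30870), 1.27-fold (AT5G17820), 1.14-fold (AT4G30170) and at least 1.02-fold (AT3G49960). The last was barely above the floor on Col-0, at 18.4. AT3G01190, a peroxidase gene of roots, was at 18.8 on Col-0, 27.2 on CAMTA.1.2, 55.2 on CAMTA.6.2, 103 on WS and 114 on CAMTA.1. Both arrays labelled WS lay above all 3 labelled Col-0, and the Col-0 value lay barely above the floor. The gene was 5.49-fold higher on WS and 2.93-fold higher on CAMTA.6.2 than on Col-0, and 1.1-fold higher on CAMTA.1 than on WS.

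AT4G30170, grouped with the root genes, was at 136 on Col-0, 119 on CAMTA.1.2, 333 on CAMTA.6.2, 302 on WS and 455 on CAMTA.1. It was low on Col-0 and CAMTA.1.2 and higher on the other 3 arrays, by 2.46-fold on CAMTA.6.2 and 2.23-fold on WS against Col-0. AT5G17820, known from root hairs, had the same split, at 135, 106, 261, 192 and 255 in the same order of arrays. Its largest difference from Col-0, a log2 value of 0.95 on the CAMTA.6.2 array, was short of 2-fold.

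AT4G26010, a root hair peroxidase gene, was under the floor on Col-0 and CAMTA.1.2 and at 37.1 on CAMTA.6.2, 43.2 on WS and 30.7 on CAMTA.1. It was at least 2.05-fold higher on CAMTA.6.2 and at least 2.39-fold higher on WS than on Col-0. AT3G49960, also of root hairs, was at 18.4 on Col-0, under the floor on CAMTA.1.2, and at 31.1, 35.8 and 26.5 on CAMTA.6.2, WS and CAMTA.1. Of the 4 comparisons, its largest was a log2 difference of 0.96 for WS against Col-0. Its highest array, WS, was at least 1.98-fold above CAMTA.1.2.

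AT1G30870 differed from the other root genes. It was at 77.9 on Col-0, 33.6 on CAMTA.1.2, 103 on CAMTA.6.2, 71.6 on WS and 70.7 on CAMTA.1. The CAMTA.1.2 array alone stood low, at 2.32-fold under Col-0, and the 2 arrays labelled WS lay beside Col-0.

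Over the 6 measured root genes, the median log2 difference was -0.11 for CAMTA.1.2 and 0.99 for CAMTA.6.2 against Col-0. It was 0.06 for CAMTA.1 against WS and 1.06 for WS against Col-0. The median of all genes was 0 each time, but genes at the floor on both arrays count as 0 in it. Over genes above the floor on 1 or both arrays it was 0.03, 0.07, 0.10 and 0.03 in the same order. The root marker BGLU21 was at 263 on Col-0, 195 on CAMTA.1.2, 749 on CAMTA.6.2, 602 on WS and 941 on CAMTA.1. Its order of arrays was that of AT4G30170, from CAMTA.1.2 as the lowest through Col-0, WS and CAMTA.6.2 to CAMTA.1 as the highest. BGLU21 was 1.51 higher on the log2 scale on CAMTA.6.2 and 1.2 higher on WS than on Col-0, where AT1G30870 was at -0.12 for WS. It was 0.64 higher on CAMTA.1 than on WS, and there the root genes were split. AT4G30170 was at 0.59, AT5G17820 at 0.41, AT3G01190 at 0.13, AT1G30870 at -0.02, AT3G49960 at -0.44 and AT4G26010 at -0.49. The part of BGLU21 in the peroxidase differences was not tested. In whole plants, fewer root cells and less RNA per root cell cannot be told apart.

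**Figure D4:**
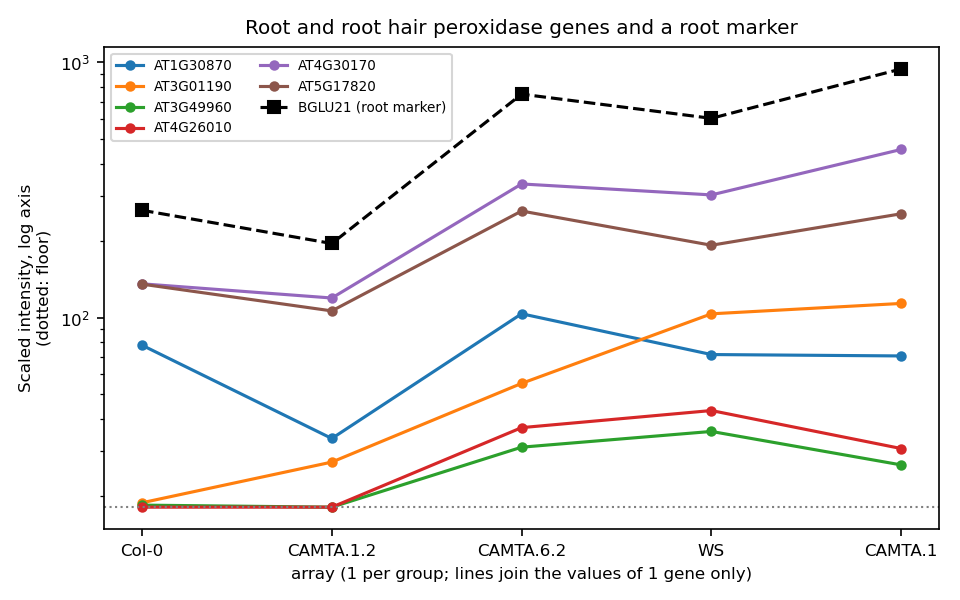
Scaled intensity (log axis) of the 6 measured root and root hair peroxidase genes and of the root marker BGLU21 on the 5 arrays, with lines joining the values of 1 gene. AT4G30170 and BGLU21 follow the same order of arrays, with BGLU21 at 195 on CAMTA.1.2 and 941 on CAMTA.1.

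Of the lignin and Casparian strip group, 7 of 9 listed loci were measured and all 7 were above the floor on some array. PRX72 (AT5G66390), a peroxidase of lignin formation, was at 43.9 on Col-0, 65.0 on CAMTA.1.2, 96.6 on CAMTA.6.2, 103 on WS and 140 on CAMTA.1. Col-0 was the lowest and CAMTA.1 the highest array, as for the root gene AT3G01190. PRX72 was 2.2-fold higher on CAMTA.6.2 and 2.35-fold higher on WS than on Col-0.

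PRX25 (AT2G41480), also linked to lignin, went the other way between accessions. It was at 56.7 on Col-0, 30.5 on CAMTA.1.2, 41.8 on CAMTA.6.2 and 23.1 on CAMTA.1, and under the floor on WS. The 3 arrays labelled Col-0 lay above both labelled WS, and PRX25 was at least 3.13-fold lower on WS than on Col-0.

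The other 5 lignin-group genes stayed within 2-fold over the arrays. AT1G71695 ranged from 225 on WS to 415 on CAMTA.1, AT4G33420 from 92.3 on CAMTA.1.2 to 172 on CAMTA.1, AT5G51890 from 109 on WS to 154 on CAMTA.1.2, AT2G22420 from 27.8 on WS to 43.9 on Col-0, and AT1G44970 from under the floor to 25.0 on Col-0. For AT5G51890 and AT2G22420, as for PRX25, the 3 arrays labelled Col-0 all lay above both labelled WS. The second probe set of AT2G22420 was at 43.4 on WS and 33.6 on Col-0, the opposite direction, so its order by accession holds for the probe set used only. The median log2 difference of the 7 genes was -0.17 for CAMTA.1.2, -0.05 for CAMTA.6.2, 0.35 for CAMTA.1 and -0.29 for WS in the 4 comparisons.

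Of the 13 listed loci of the stress, defence and cold group, 5 were measured. PRX71 (AT5G64120), a gene induced by pathogens and by damage to the wall, was at 314 on Col-0, 212 on CAMTA.1.2, 111 on CAMTA.6.2, 211 on WS and 110 on CAMTA.1. The CAMTA.6.2 and CAMTA.1 arrays stood low. PRX71 was 2.83-fold lower on CAMTA.6.2 than on Col-0 and 1.91-fold lower on CAMTA.1 than on WS, a log2 difference of -0.93 that became -1.06 with the values as deposited.

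AT5G39580, which responds to pathogens, was at 70.7 on Col-0, 24.3 on CAMTA.1.2, 27.0 on CAMTA.6.2 and 31.5 on CAMTA.1, and under the floor on WS. The Col-0 array alone stood high, so the differences from it share that 1 value. They were 2.91-fold lower for CAMTA.1.2, 2.62-fold lower for CAMTA.6.2 and at least 3.90-fold lower for WS.

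AT4G36430 was at 119 on Col-0, 74.9 on CAMTA.1.2, 182 on CAMTA.6.2, 74.7 on WS and 138 on CAMTA.1. AT5G64100 was at 535, 393, 831, 730 and 573 in the same order of arrays. Both were highest on CAMTA.6.2 and within 2-fold in each of the 4 comparisons. Over the 5 arrays their ranges were 2.43-fold and 2.11-fold, and both were over 2-fold higher on CAMTA.6.2 than on CAMTA.1.2. AT2G37130 was also highest on CAMTA.6.2, at 1380, with 708 on Col-0, 831 on CAMTA.1.2, 931 on WS and 764 on CAMTA.1.

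The remaining 28 measured genes have no role assigned here, and 19 of them were above the floor on some array. AT5G19890 had the widest range of the family, at 72.5 on Col-0, 133 on WS, 35.6 on CAMTA.1 and under the floor on CAMTA.1.2 and CAMTA.6.2. Both arrays without a named line lay above all 3 line arrays, and the share of all genes with this order was not computed here. AT5G19890 was at least 4.0-fold lower on CAMTA.1.2 and on CAMTA.6.2 than on Col-0, and 3.74-fold lower on CAMTA.1 than on WS. It was 2-fold lower in all 3 comparisons of a line, of which 2 share the Col-0 array. Of all genes, 12 of 42 for CAMTA.1.2 and 48 of 112 for CAMTA.6.2 were also among the 95 genes 2-fold lower on CAMTA.1 than on WS.

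AT1G49570 had a like pattern, at 51.2 on Col-0, 54.5 on WS, 28.0 on CAMTA.1 and under the floor on CAMTA.1.2 and CAMTA.6.2. It was at least 2.83-fold lower on each of the last 2 than on Col-0, and 1.95-fold lower on CAMTA.1 than on WS, a log2 difference of -0.96 that became -1.09 with the values as deposited. AT4G16270 was at 37.9 on Col-0, 32.6 on CAMTA.1.2 and 19.7 on WS, and under the floor on CAMTA.6.2 and CAMTA.1. It was at least 2.09-fold lower on CAMTA.6.2 than on Col-0.

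AT2G38390 was high on the CAMTA.6.2 and CAMTA.1 arrays. It was at 85.2 on Col-0, 71.1 on CAMTA.1.2, 347 on CAMTA.6.2, 94.2 on WS and 396 on CAMTA.1. The 3 other arrays lay close together, and the gene was 4.07-fold higher on CAMTA.6.2 than on Col-0 and 4.2-fold higher on CAMTA.1 than on WS. These 2 comparisons have no array in common. However, CAMTA.6.2 and CAMTA.1 were also the arrays with the highest ubiquitin 3' over 5' ratios, 3.57 and 3.32, while the GAPDH ratios did not set them apart. The part of this in the AT2G38390 values was not tested.

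Its direct neighbour on chromosome 2, AT2G38380, was at 698 on Col-0, 734 on CAMTA.1.2, 956 on CAMTA.6.2, 505 on WS and 1199 on CAMTA.1. It was 2.37-fold higher on CAMTA.1 than on WS but 1.37-fold higher on CAMTA.6.2 than on Col-0. The second probe set of AT2G38380 gave log2 differences of 0.95 and 0.42 in these comparisons, against 1.25 and 0.45 for the set used. How far the probes of these neighbours also detect each other's transcript was not tested.

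AT3G21770 was at 215 on Col-0, 227 on CAMTA.1.2, 471 on CAMTA.6.2, 275 on WS and 825 on CAMTA.1. It was highest on the same pair of arrays as AT2G38390, 2.19-fold over Col-0 on CAMTA.6.2 and 3.00-fold over WS on CAMTA.1. Its second probe set was also higher in both comparisons, at 29.6, 27.6, 75.5, 96.1 and 300.5 in the same order. There the WS array lay above CAMTA.6.2 and above Col-0, the latter by 1.70 on the log2 scale against 0.35 for the set used.

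AT3G32980 was at 462 on Col-0, 509 on CAMTA.1.2, 978 on CAMTA.6.2, 650 on WS and 1134 on CAMTA.1. AT2G18980 was at 67.4, 71.0, 147, 62.7 and 108 in the same order. Both were highest on CAMTA.6.2 and CAMTA.1, by 2.12-fold and 2.18-fold for CAMTA.6.2 against Col-0 and by 1.74-fold and 1.72-fold for CAMTA.1 against WS. Of the 8 genes higher on CAMTA.6.2 than Col-0 and the 3 higher on CAMTA.1 than WS, 2 were shared, AT2G38390 and AT3G21770. Of all genes, 22 of 107 and of 70 were shared. Of the 5 green shoot markers measured, LHB1B2 and PSAE-1 were also highest on these arrays, LHB1B2 at 2502 and 1946 against 398 to 640. PRK and SBPASE were lowest there, PRK at 784 and 869 against 1003 to 1393, and RCA lay within the range of the others. The part of these markers in the peroxidase values was not tested.

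AT4G11290 followed accession. It was at 38.2 on Col-0, 47.7 on CAMTA.1.2, 37.9 on CAMTA.6.2, 120 on WS and 140 on CAMTA.1. The arrays fell into the accessions with no overlap, and the gene was 3.14-fold higher on WS than on Col-0.

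Accession was the only labelled factor with more than 1 array on each side. A limma fit set the 3 arrays labelled Col-0 against the 2 labelled WS, so the lines within an accession counted as its spread. With 5635 probe sets tested, 27 (0.479%) passed an adjusted p of 0.05 by limma, 8 of them higher (0.142%) and 19 lower (0.337%) in WS. Of the 37 peroxidase genes in the fit, limma called 0, and 4 had an unadjusted p under 0.05, as had 436 of the 5635 probe sets, or 7.74%.

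AT4G11290 came closest, higher in both WS arrays by 1.66 on the log2 scale (SE 0.183, adjusted p = 0.0562 by limma). Over the alternatives its adjusted p by limma ran from 0.0232 to 0.530, under 0.05 with the values as deposited and with the floor at the 60th percentile. AT3G01190 was higher by 1.83 (SE 0.480, adjusted p = 0.406 by limma), while limma gave PRX25 (AT2G41480) -1.03 (SE 0.309, adjusted p = 0.495) and AT2G22420 -0.45 (SE 0.162, adjusted p = 0.609) on the log2 scale. Without regard to size, both WS arrays lay above all 3 Col-0 arrays for 3 of the 46 genes, AT3G01190, AT4G11290 and PRX72, against 8.44% of all genes. They lay below for 3, PRX25, AT2G22420 and AT5G51890, against 5.91%. Both shares were near the background.

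The other genes without an assigned role varied less. PRXR1 (AT4G21960) was at 3025 on Col-0, 2578 on CAMTA.1.2, 3073 on CAMTA.6.2, 2187 on WS and 3270 on CAMTA.1, a range of 1.5-fold. AT4G37520 had the narrowest range of the genes above the floor on all arrays, 1.18-fold, from 223 on CAMTA.1.2 to 264 on Col-0. AT5G40150 stayed between 33.6 and 41.7, AT1G68850 between 41.0 and 59.6, AT2G35380 between 39.7 and 60.4, AT2G34060 between 37.0 and 59.8 and AT2G18150 between 151 and 300.4. AT4G25980, AT5G14130 and AT2G39040 were above the floor on 1 array each, at 23.4 on WS, 20.5 on CAMTA.1 and 18.1 on WS, the last barely above the floor.

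The 9 genes under the floor on all 5 arrays were AT1G24110, AT1G77100, AT2G18140, AT2G24800, AT2G43480, AT4G17690, AT4G31760, AT4G33870 and AT5G06730. AT2G18140 and AT2G18150 are direct neighbours on chromosome 2, and only the second was above the floor. AT5G64100 and PRX71 are separated by 1 gene on chromosome 5, and they differed from Col-0 in opposite directions on the CAMTA.6.2 array, by 0.63 and -1.50 on the log2 scale. Of the 46 probe sets used, 13 carry the suffix the array's maker gives to sets whose probes match more than 1 sequence, AT3G01190, AT4G11290, AT3G32980, PRX71, PRX72 and PRXR1 among them, so their signal may include related transcripts. Another 3 carry the suffix i (AT2G18150, AT2G38380 and AT3G21770) and 1 the suffix g (AT2G22420). Whether these sets detect 1 gene only was not tested.

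Genes that act with the peroxidases were mostly without a named probe set. None of the 17 monolignol synthesis genes, 17 laccases, 14 genes of superoxide and hydrogen peroxide production and 5 extensins whose listed names matched the reference was measured under its own name. Of 19 genes that remove hydrogen peroxide, 2 were measured. SAPX, the stromal ascorbate peroxidase, was at 61.8 on Col-0, 62.7 on CAMTA.1.2, 54.4 on CAMTA.6.2, 139 on WS and 147 on CAMTA.1. Both WS arrays stood above all 3 Col-0 arrays, with a log2 difference of 1.17 for WS against Col-0. TAPX, the thylakoid form, ranged from 111 on Col-0 to 162 on CAMTA.1 and was within 2-fold in all 4 comparisons.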

How the data were processed

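RNA from whole plants was hybridised to 5 one-colour arrays, per the labels. The deposited files give the authors' intensity for each probe set, not logged. Computed from these values, the 2% trimmed mean of every array is close to 100, so a scaling step precedes deposit. Software, summary method and detection calls are not given in the sources used here.

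Of 8297 probe sets, 50 controls were left out. The floor was the 40th percentile of all values (18.1). Deposited values were multiplied by a factor per array (0.940 to 1.03), from the median log2 of 4245 probe sets that exceed the floor throughout, then floored and taken to log2. A difference counted at 2-fold or more. Names came from the platform annotation through gene IDs to the TAIR10.1 gene table: 3794 probe sets named 1 gene, 70 several and 4383 none. No probe set naming several genes held a family member.

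The accession fit used limma 3.58.1 (R 4.3.3; lmFit, eBayes) with Benjamini-Hochberg adjustment at 0.05. The code was also run on simulated data in which every probe set had the same spread. That run cannot show how well the fit works on these arrays, where the lines count as spread. Python 3.11.15, numpy 2.4.6, pandas 2.3.3 and scipy 1.17.1 were used. The number of arrays limits the precision, and no 2 arrays held identical values.

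Members, role groups and gene lists were chosen with earlier results of these data known. Genes were named in full if 2-fold apart in a comparison, called by limma, or among the 5 highest signals; others by range. Alternatives were the deposited scale, quantile normalization, floors at the 20th and 60th percentiles, the mean over a gene's probe sets, and for the fit no filter, an additive fit, a variance trend and leaving out each array. Promoter and protein sequences were not used here.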

Additional observations from a re-analysis of the deposited data

How the results depend on the processing

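Of the 28 differences at 2-fold or more of single genes, all 28 kept direction and size class with the floor at the 20th percentile and with the mean over probe sets, 27 with the values as deposited, 27 with quantile normalization and 15 with the floor at the 60th percentile, which shrinks every difference that reaches down to it. The counts of peroxidase genes 2-fold apart moved by over 1.5 times with the floor at the 60th percentile, to 0 for CAMTA.1.2 against Col-0, 7 for CAMTA.6.2 against Col-0 and 4 for WS against Col-0, and with the floor at the 20th percentile to 8 for CAMTA.1 against WS. With the values as deposited, CAMTA.1 against WS had 3 higher and 3 lower in place of 3 and 1. None of these differences reversed. The limma count of 0 peroxidase genes by accession became 1, AT4G11290, with the values as deposited and 1 with the floor at the 60th percentile; leaving out each array in turn gave 0 to 0. The limma count over all probe sets, 27, became 43 with the floor at the 20th percentile, 7 without a filter on low values, and 0 in the additive fit on 4 arrays, and was 0 to 0 with each array left out in turn, where fewer arrays remain. No paired analysis was possible because each group has 1 array and the labels give no replicate numbers. Values near the floor of 18.1 are limited by background.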
